A study of Mus musculus with 4 samples.

Results

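The Hox genes encode homeodomain transcription factors that give cells along the body axis their positional identity, and in mouse they stand in 4 clusters, Hoxa, Hoxb, Hoxc and Hoxd. They were taken here as every non-control spot whose gene name is Hoxa, Hoxb, Hoxc or Hoxd followed by a number. The rule uses names only and no measured value. It found 58 spots of 49 probes for 38 genes, of the 27962 gene names on the array and of 39 genes that a current mouse annotation places in the clusters. No spot bears the name Hoxc11. The counts and values below cover 37 of the genes, with 48 probes.

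The data come from 4 two-colour arrays of ZHBTc4 cells. These are mouse embryonic stem cells whose Oct4 comes from a transgene, and doxycycline switches that transgene off. The treated cells were in Cy5, with 2 biological replicates of each treatment: doxycycline plus TCP for 48 h (dox+TCP) and doxycycline alone for 48 h (dox, titled the control in the labels), both with 2 µg of doxycycline. ZHBTc4 cells with no treatment named were in Cy3 on every array and are called the reference. All cells had been grown on irradiated embryonic fibroblasts and then passaged 2 times on gelatin. The labels do not spell out TCP, and the study's title names LSD1, a histone demethylase. Every group is of this 1 line, and dyes were not swapped, so a probe's own dye bias is part of its ratio to the reference but not of the difference between the treatments.

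Within a cluster, the number in a gene's name gives its position: low numbers lie at one end and act toward the head, and high numbers lie at the other end and act toward the tail and in the limbs and genitalia. In the embryo the clusters are opened in that order, with retinoic acid, Wnt signals and the Cdx factors among the inputs. In embryonic stem cells they are textbook targets of Polycomb repression and are mostly silent. Oct4 loss turns these cells toward trophoblast, the placental lineage, which has no place on the body axis.

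Promoter sequences are shown for 2 genes on which the results below turn, since a CG-rich promoter is the usual platform of Polycomb at these clusters. RefSeq windows of 300 bases around the start, on GRCm38.p6, were held for 22 of the 37 genes. Hoxb5, Hoxb9 and Hoxc9 were not among them. CG dinucleotides are in capitals. The Hoxd13 window is chr2:74667975-74668274 on the plus strand and the Hoxa7 window is chr6:52218524-52218823 on the minus strand.
Hoxd13: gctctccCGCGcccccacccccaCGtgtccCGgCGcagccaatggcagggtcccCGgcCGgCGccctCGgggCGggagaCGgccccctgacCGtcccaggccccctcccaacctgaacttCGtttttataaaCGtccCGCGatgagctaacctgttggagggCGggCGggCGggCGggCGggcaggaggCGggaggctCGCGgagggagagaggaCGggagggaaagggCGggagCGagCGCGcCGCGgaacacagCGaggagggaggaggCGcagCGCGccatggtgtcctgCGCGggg
Hoxa7: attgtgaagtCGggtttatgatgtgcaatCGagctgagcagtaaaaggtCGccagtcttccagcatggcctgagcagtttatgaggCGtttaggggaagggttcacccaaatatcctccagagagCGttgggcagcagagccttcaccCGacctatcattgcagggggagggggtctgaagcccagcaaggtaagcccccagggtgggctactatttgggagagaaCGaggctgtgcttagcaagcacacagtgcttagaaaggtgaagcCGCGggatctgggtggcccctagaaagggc
The Hoxd13 window held 37 CG and the Hoxa7 window 9. The median was 14.5 over the 24 Hox windows, against 7 over all 32851 windows. The letters TATAAA, on either strand, were in the Hoxd13 window and in 4 of the 22 genes, against 13.6% of all windows. TTTATG, the core that Cdx factors bind, was in 5 of the 22 genes, Hoxa7 among them, against 11.9% of all windows. AGGTCA, which retinoic acid receptors bind, was in 7 of the 22 genes, against 16.3%. The octamer ATGCAAAT of Oct4 was in 0 of the 22, against 1.74%. Each was searched on both strands, TTTATG shares TTTAT with the reverse of TATAAA, and a match is only a description of these letters.

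Oct4 RNA itself checked the labels. The log2 ratio of Cy5 over Cy3 for Pou5f1 was -3.29 and -3.28 in dox+TCP and -3.38 and -3.62 in dox. All 8 markers of undifferentiated cells fell in dox, and 6 of 8 in dox+TCP, by limma's test described below. The reference stood apart between arrays: on the replicate 2 arrays its summed normalized level over 11 trophoblast markers was 229533 beside dox+TCP and 208002 beside dox, whereas on the replicate 1 arrays it was 35134 and 32367. In Cy5 that sum lay between 310435 and 347652 in dox+TCP and between 378008 and 464869 in dox. The values of each array are therefore printed below, and a result that rests on 1 pair of arrays is said to. No test can be made of the replicate 1 arrays alone, since each group then has 1 array. Replicate 1 of both groups shared a slide, and replicate 2 of dox+TCP was scanned on another day. In bulk RNA, fewer cells of a type and less RNA per cell cannot be told apart.

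A Hox transcript was often measurable on these arrays. The scanner marks a spot as well above background in each channel, and on that mark 19 of the 37 genes had a probe that passed in both channels on all 4 arrays. Counted over probes this was 45.8% of the Hox probes, against 65.3% of all probes. In Cy5, 27 and 24 of the 37 genes passed on the dox+TCP arrays and 22 and 25 on the dox arrays. In Cy3, 28 and 21 passed in the reference beside dox+TCP and 26 and 27 beside dox. Of all probes on the array, 77.8% and 74.0% passed in Cy5 on the dox+TCP arrays and 76.2% and 76.3% on the dox arrays. In Cy3 these shares were 76.8% and 68.4% beside dox+TCP and 74.7% and 77.8% beside dox. The lowest count and the lowest share in Cy3 thus fell on the same array. On both arrays of the group, 22 genes passed in dox+TCP and 22 in dox, against 20 genes on all 4 arrays in the reference. Local background was brighter in Cy5 (medians of 53.5 to 60) than in Cy3 (22 to 26.5), so the channels do not share 1 detection limit.

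**Figure D1:**
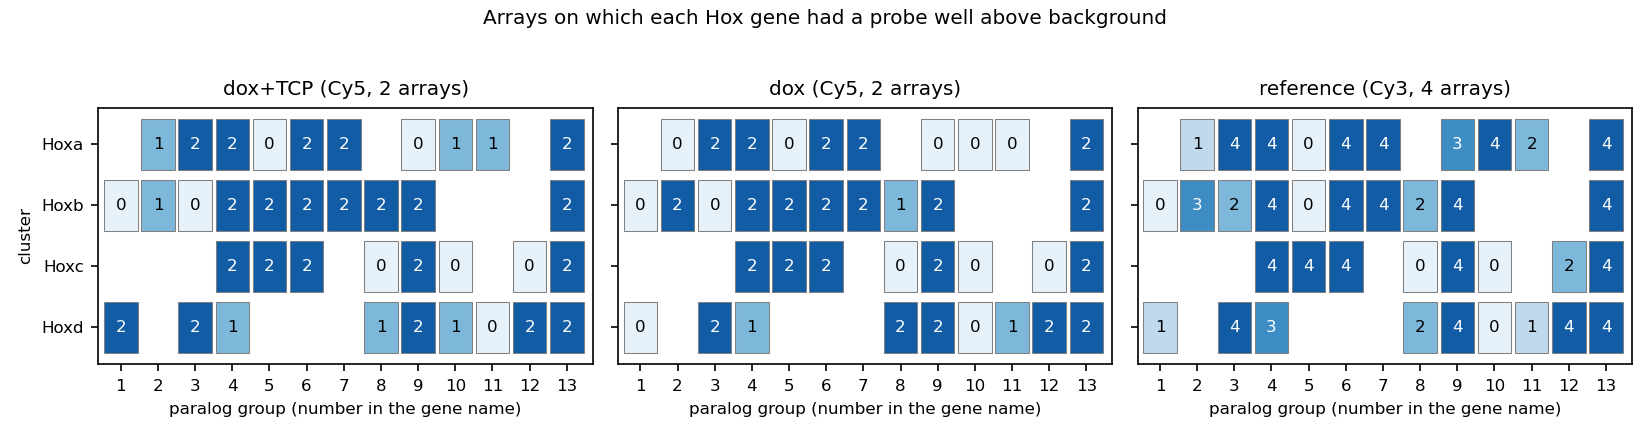
Each square is a Hox gene, placed by cluster (vertical axis) and by the number in its name (horizontal axis), and the number in it counts the arrays on which a probe of the gene was well above background, for dox+TCP (of 2), dox (of 2) and the reference (of 4). Hoxa5, Hoxb1, Hoxc8 and Hoxc10 are at 0 in every panel, and a blank place has no value here.

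Never well above background in either channel were 4 of the genes. They were Hoxa5, known for its role in lung development, Hoxb1, which marks a segment of the hindbrain and had 10 spots, Hoxc8, a thoracic gene, and Hoxc10, a hindlimb motor neuron gene. A further 8 genes were above background too rarely to be tested. Among these, 3 were never well above background in Cy5 but passed in the reference: Hoxa9, a regulator of blood progenitors, on 3 of 4 arrays, and Hoxb3 and Hoxc12 on 2 of 4 each. Hoxa9 had processed signals of 21 and 24 in dox+TCP, against 49 and 60 in the reference, and of 19 and 23 in dox, against 52 and 47 in the reference. Cy3 was the brighter channel for Hoxa9 on each of the 4 arrays, with no test since its probe did not pass the filter. Hoxa11, a kidney and limb gene, passed in Cy5 on 1 array and in Cy3 on 2. Hoxd4 passed on 2 of 4 arrays in Cy5 and 3 of 4 in Cy3, Hoxd10 on 1 and 0, and Hoxd11 on 1 and 1. Hoxa2, the selector gene of the second pharyngeal arch, was not well above background on 3 arrays and had 216 in Cy5 and 247 in Cy3 on replicate 2 of dox+TCP. That array alone carried it above background, in both dyes at once.

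To be tested, a probe needed that mark in Cy5 on both arrays of dox+TCP or both of dox, or in Cy3 on every array. This left 30 Hox probes of 25 genes, 62.5% of the Hox probes, against 75.6% of all probes. The other 18 probes did not pass. Ratios were background-corrected and loess-normalized log2 values of Cy5 over Cy3, and a probe was called when limma's p, adjusted by Benjamini-Hochberg over all 31112 tested probes, was under 0.05. With 2 arrays a group, the median SE was 0.0909 for a Hox probe's log2 ratio to the reference and 0.129 for the difference between the groups. The background correction adds 50 to both channels, which draws the log2 ratios of dim probes toward 0. The median processed signal was 128 over the tested Hox probes, against 514 over all tested probes. Ratios and folds below are on this scale unless the scanner's log ratios are named.

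Against the reference, 0 of the 30 Hox probes were called in dox+TCP, where 14.0% of all tested probes were called (6.58% higher and 7.44% lower). In dox, 1 of the 30 was called (3.33%), where 13.4% of all tested probes were called (6.07% higher and 7.33% lower). The called probe was of Hoxd13, which was lower. At an unadjusted p under 0.05, limma's test held 5 of the 30 in dox+TCP and 8 in dox, against 32.3% and 32.1% of all tested probes. The median log2 ratio of the 30 probes was 0.09 in dox+TCP and 0.04 in dox, against 0.03 and 0.00 over all tested probes. The ratio of 26 of the 30 lay within 0.5 of 0 in dox+TCP and of 27 of the 30 in dox, against 72.4% and 72.2% of all tested probes. On the scanner's own log ratios it was 19 of the 30 in each, against 62.6% and 62.1% of all tested probes. The 2 comparisons share their reference.

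Hoxd13, which patterns digits and genitalia from the tail end of the Hoxd cluster, was the member that fell. Its called probe, A_52_P591310, lies at chr2:74514907-74514966 (mm7). Processed Cy5 signals were 254 and 151 in dox+TCP, against 312 and 172 in the reference, and 201 and 104 in dox, against 336 and 209. The log2 ratio was -0.23 and -0.08 in dox+TCP and -0.58 and -0.60 in dox, so both treatments were below the reference on each array and the groups did not overlap. In dox the normalized level was 0.666 of the reference (95% interval 0.56 to 0.792, limma adjusted p = 0.035). In dox+TCP it was 0.897 of the reference and was not called (limma adjusted p = 0.320). On the scanner's own log ratios Hoxd13 was at -0.87 in log2 in dox (limma adjusted p = 0.033) and at -0.24 in dox+TCP. The size of the fall thus depends on the processing. A second Hoxd13 probe was never well above background, so the fall rests on 1 probe. Leaving out an array leaves its group with 1 array, which is assumed to vary like the other group, and the spread then comes from that other group's 2 arrays alone. Without replicate 1 or 2 of dox the limma adjusted p was 0.060 and 0.081, and without either dox+TCP array it was 0.137.

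**Figure D2:**
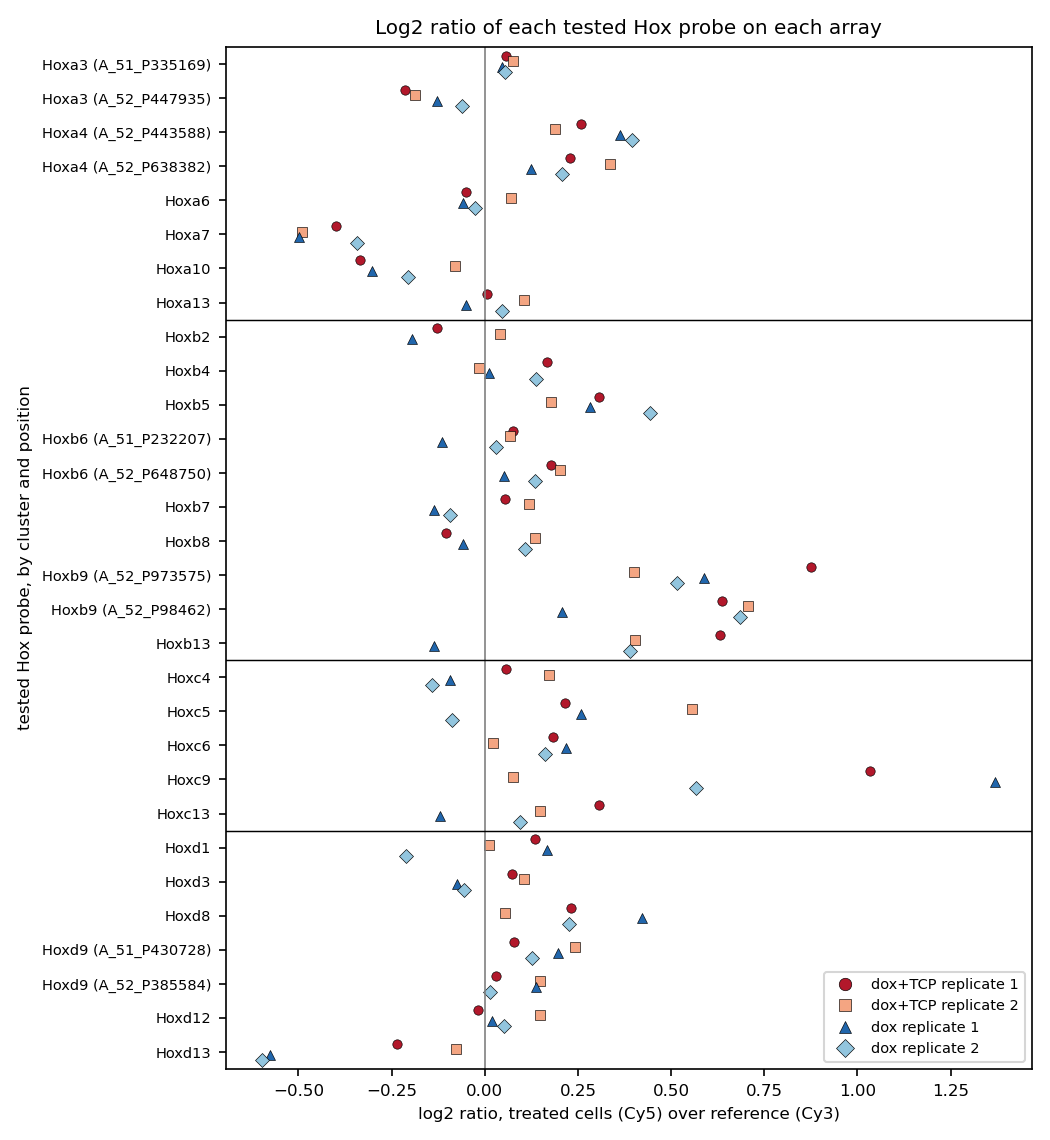
Log2 ratio of treated cells (Cy5) over the reference (Cy3) on the horizontal axis, for 30 tested Hox probes in order of cluster and position down the page, with 1 point per array. Hoxa7, Hoxa10, Hoxd13 and Hoxa3 (A_52_P447935) lie below 0 on all 4 arrays. Both probes of Hoxa4, Hoxb9 and Hoxd9 lie above 0 on all 4. So do Hoxb5, Hoxc6, Hoxc9, Hoxd8, Hoxa3 (A_51_P335169) and Hoxb6 (A_52_P648750). Most of the 30 probes lie near 0.

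In the Hoxa cluster, 8 tested probes spanning chr6:52133000-52222285 (mm7) had a median log2 ratio of 0.03 in dox+TCP and -0.02 in dox, and none of the 8 was called. Hoxa3, a gene of the pharyngeal arches, had log2 ratios of 0.06 and 0.08 in dox+TCP and 0.05 and 0.05 in dox on one probe. On the other it had -0.22 and -0.19 in dox+TCP and -0.13 and -0.06 in dox. Hoxa4 lay above the reference on all 4 arrays with both of its probes. For A_52_P443588 the log2 ratio was 0.26 and 0.19 in dox+TCP and 0.36 and 0.40 in dox (limma adjusted p = 0.063 in dox), and for A_52_P638382 it was 0.23 and 0.34 in dox+TCP and 0.13 and 0.21 in dox. Hoxa6 was at -0.05 and 0.07 in dox+TCP and -0.06 and -0.03 in dox.

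Hoxa7, a gene of the thoracic region, was lower than the reference on each array, with log2 ratios of -0.40 and -0.49 in dox+TCP and -0.50 and -0.34 in dox. Its processed signals were 138 and 90 in dox+TCP, against 218 and 176 in the reference, and 136 and 76 in dox, against 243 and 135. It missed the threshold narrowly, at a limma adjusted p of 0.056 in dox+TCP and 0.064 in dox. Fitted on the 2 dox+TCP arrays alone, Hoxa7 was called in dox+TCP at the same ratio. That fit rests on 1 pair of arrays and called 8536 of the 31112 tested probes, against 4361 with all arrays. It called 3 of the 30 Hox probes. On the scanner's own log ratios Hoxa7 was called in both, at -0.81 in dox+TCP and -0.83 in dox in log2 (limma adjusted p = 0.040 and 0.038). On those ratios 2 of the 30 Hox probes were called in dox+TCP, 1 higher and 1 lower, where 7.15% of all tested probes were called higher and 7.53% lower. In dox 6 were called, 3 higher and 3 lower, where 7.82% were called higher and 6.98% lower. Hoxa10, needed in the uterus, was well above background in the reference on all 4 arrays but on 1 array in Cy5. It was at least 1.19-fold lower in dox than in the reference, since its dox level has only an upper bound, and was not called (limma adjusted p = 0.202). Hoxa13, a limb and gut gene, was at 0.01 and 0.10 in dox+TCP and -0.05 and 0.05 in dox.

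In the Hoxb cluster (chr11:96304167-96476235, mm7) 10 probes were tested and none was called. Their median log2 ratio was 0.14 in dox+TCP and 0.08 in dox. Hoxb9, a gene of the thoracic region and rib cage, was higher than the reference with both probes on all 4 arrays. Probe A_52_P98462 had log2 ratios of 0.64 and 0.71 in dox+TCP and 0.21 and 0.68 in dox. Probe A_52_P973575 had 0.87 and 0.40 in dox+TCP and 0.59 and 0.51 in dox. The 2 probes gave 1.59- and 1.56-fold in dox+TCP (limma adjusted p = 0.062 and 0.067) and 1.36- and 1.47-fold in dox (limma adjusted p = 0.134 and 0.090), so neither passed the threshold. On the scanner's log ratios the 2 probes were at 1.00 and 0.80 in log2 in dox+TCP and at 0.71 and 0.80 in dox. Neither was called there. Processed signals of the first were 535 and 679 in dox+TCP, against 277 and 328 in the reference, and 363 and 538 in dox, against 289 and 253. Without replicate 1 of dox, the array with the smallest ratio, that probe was called in dox at a log2 ratio of 0.68 (limma adjusted p = 0.041), a value that comes from the 1 dox array left, with the spread of the dox+TCP pair. In the fit of the 2 dox+TCP arrays alone, described above for Hoxa7, the same probe was called in dox+TCP, which rests on that pair.

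Hoxb13, the tail-end gene of that cluster, differed by array: 0.63 and 0.40 in dox+TCP and -0.14 and 0.39 in dox. Its dox replicate 1 value stood below the others, and no call was made with all arrays (limma adjusted p = 0.128 in dox+TCP and 0.672 in dox). In the fit of the 2 dox+TCP arrays alone Hoxb13 was called at an unchanged log2 ratio of 0.52, which again rests on that pair. Hoxb5 was well above background on all 4 arrays in Cy5 and on 0 of 4 in the reference. Its log2 ratio was 0.31 and 0.18 in dox+TCP and 0.28 and 0.44 in dox. With the reference taken at its measured level, Hoxb5 was 1.18-fold of it in dox+TCP (95% interval 0.983 to 1.42). In dox it was 1.29-fold (1.07 to 1.55), and neither was called (limma adjusted p = 0.183 and 0.090). On the scanner's log ratios Hoxb5 was called in both, at 1.12 in dox+TCP and 1.18 in dox.

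Apart from Hoxb5, the tested genes from Hoxb2 to Hoxb8 lay near the reference level. Hoxb6 had 0.18 and 0.20 in dox+TCP and 0.05 and 0.13 in dox on one probe, and 0.08 and 0.07 in dox+TCP and -0.11 and 0.03 in dox on the other. Hoxb7 had 0.06 and 0.12 in dox+TCP and -0.14 and -0.09 in dox. Processed signals of Hoxb7 were 334 and 349 in dox+TCP, against 301 and 296 in the reference, and 270 and 335 in dox, against 288 and 316. Its probe was well above background in both channels on all 4 arrays. Hoxb4, known for expanding blood stem cells, had 0.17 and -0.01 in dox+TCP and 0.01 and 0.14 in dox. Hoxb8 had -0.10 and 0.13 in dox+TCP and -0.06 and 0.11 in dox. Hoxb2, a hindbrain gene, had -0.13 and 0.04 in dox+TCP and -0.20 on the 1 dox array left, because its spot on replicate 2 of dox was marked as an outlier and was dropped from the fit.

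In the Hoxc cluster (chr15:102914520-103022308, mm7), which holds no gene of paralog groups 1 to 3, 5 probes were tested and none was called. Hoxc9, a thoracic gene that sets motor neuron identity, varied most. Its Cy5 signal was 386 and 122 in dox+TCP, against 112 and 98 in the reference, and 508 and 252 in dox, against 105 and 113. The reference was alike on the 4 arrays, and both treatments were higher on the replicate 1 array than on the replicate 2 array. The log2 ratio was 1.04 and 0.08 in dox+TCP and 1.37 and 0.57 in dox, so the replicates of a treatment differed by more than the treatments did. The limma adjusted p was 0.335 in dox+TCP and 0.142 in dox, at 1.47-fold (95% interval 0.778 to 2.78) and 1.96-fold (1.03 to 3.7). For fibroblast markers of the feeder cells, 22 of 22 tested, the mean log2 level in Cy5 was higher on the replicate 1 array of each treatment. It was 8.92 and 8.61 in dox+TCP and 8.56 and 8.48 in dox. In the reference it was also higher there, at 9.06 and 8.69 beside dox+TCP and 9.13 and 8.56 beside dox. Their mean log2 ratio was -0.15 and -0.07 in dox+TCP and -0.57 and -0.08 in dox. Their summed Cy5 level was instead higher on the replicate 2 array, at 34280 and 35883 in dox+TCP and 23725 and 24770 in dox. In each channel 21 or 22 of 22 were well above background, and the part of these markers in any Hox value was not tested. Cdx2, a trophoblast factor that also acts upstream of Hox genes in the embryo, had log2 ratios of 2.87 and 0.17 in dox+TCP and 3.39 and 0.73 in dox, and was not called. Its log2 level was 11.94 and 10.54 in dox+TCP, against 9.07 and 10.38 in the reference, and 12.80 and 11.77 in dox, against 9.41 and 11.04. Both channels thus differed between the replicate 1 and replicate 2 arrays, in opposite directions. Its part in the Hoxc9 values was not tested.

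The other 4 tested Hoxc genes were not called. Hoxc4 had processed signals of 1040 and 1612 in dox+TCP, against 988 and 1422 in the reference, and 1017 and 1313 in dox, against 1068 and 1313. Its log2 ratio was 0.06 and 0.17 in dox+TCP and -0.09 and -0.14 in dox. Hoxc5 had 0.22 and 0.56 in dox+TCP and 0.26 and -0.09 in dox. Hoxc6 had 0.18 and 0.02 in dox+TCP and 0.22 and 0.16 in dox. Hoxc13, a gene of hair and nails, had 0.31 and 0.15 in dox+TCP and -0.12 and 0.10 in dox.

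Apart from Hoxd13, no tested gene of the Hoxd cluster (chr2:74513664-74608718, mm7) was called. Hoxd12, the neighbour of Hoxd13, had -0.02 and 0.15 in dox+TCP and 0.02 and 0.05 in dox, with processed signals of 234 and 413 against 231 and 322 in the reference for dox+TCP, and 254 and 265 against 253 and 234 for dox. Hoxd9 had 0.08 and 0.24 in dox+TCP and 0.20 and 0.13 in dox on one probe, and 0.03 and 0.15 in dox+TCP and 0.14 and 0.01 in dox on the other. Hoxd8 was above the reference on each array, at 0.23 and 0.05 in dox+TCP and 0.42 and 0.22 in dox, with a limma adjusted p of 0.131 in dox. On the scanner's log ratios Hoxd8 was called in dox, at 1.08 (limma adjusted p = 0.048). Hoxd3 had 0.07 and 0.10 in dox+TCP and -0.08 and -0.06 in dox. Hoxd1 was well above background in dox+TCP on both arrays and in dox on 0 of 2, and its log2 ratio was 0.13 and 0.01 in dox+TCP and 0.17 and -0.21 in dox.

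**Figure D3:**
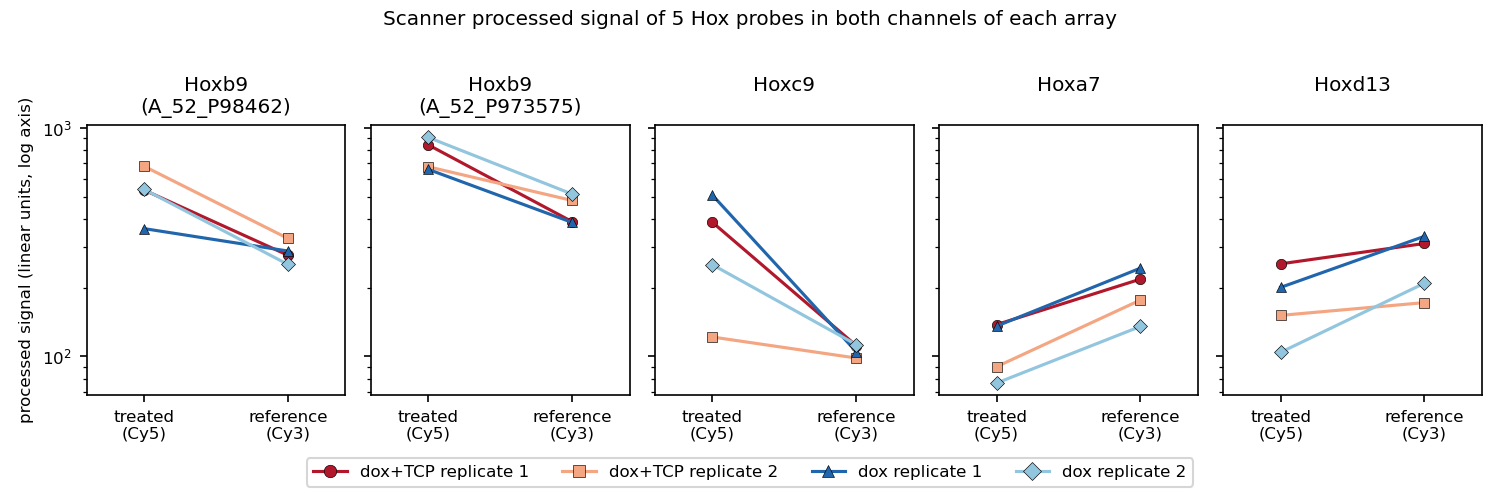
Scanner processed signal (log axis) of 5 Hox probes in the treated cells (Cy5, left) and the reference (Cy3, right), with 1 line per array. Both Hoxb9 probes fall from left to right on every array, Hoxa7 and Hoxd13 climb, and Hoxc9 spreads from 122 to 508 in Cy5 while its reference stays between 98 and 113.

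By position along the clusters, the medians differed little and no test was made. The 5 tested probes of paralog groups 1 to 3 described here had a median log2 ratio of 0.07 in dox+TCP and -0.07 in dox. The 14 probes of groups 4 to 8 had medians of 0.11 in dox+TCP and 0.08 in dox. The 11 probes of groups 9 to 13 had medians of 0.16 in dox+TCP and 0.07 in dox, and held both Hoxc9, at 0.97 in dox, and Hoxd13, at -0.59 in dox.

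Whether TCP changed Hox expression under doxycycline is the comparison of dox+TCP with dox. No Hox probe was called (0 of 30), and neither was any of the 31112 tested probes (0%). At an unadjusted p under 0.05, limma's test held 1 of the 30 Hox probes, Hoxd13, and 4.47% of all tested probes. Hoxd13 was 1.35-fold higher in dox+TCP than in dox (95% interval 1.05 to 1.72, limma unadjusted p = 0.028), by 0.34 in log2 between the arrays that shared a slide and by 0.52 between the replicate 2 arrays. After adjustment its limma p was 0.999.

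Across the 30 probes the log2 difference between dox+TCP and dox ran from -0.41 for Hoxc9 to 0.43 for Hoxd13, with a median of 0.06, against 0.03 over all tested probes. It was above 0 for 21 probes and below 0 for 9. All 30 lay within 0.5 of 0, as did 91.9% of all tested probes. On the scanner's log ratios 23 of the 30 did, against 84.4% of all tested probes, and the difference ran from -1.07 for Hoxd8 to 0.72 for Hoxc13. The arrays of the groups did not overlap for 13 of the 30 (43.3%), against 32.8% of all tested probes. In 11 of the 30 dox+TCP was above dox, against 18.2% of all tested probes. Hoxb2, with its 1 dox array, is counted among the 11. Hoxc4 was 1.18-fold (95% interval 0.929 to 1.49) and Hoxb13 1.31-fold (0.83 to 2.07) of dox, with Hoxb13 at 0.77 in log2 between the arrays of the shared slide and 0.01 between the replicate 2 arrays. The widest interval was that of Hoxc9, from 0.305- to 1.85-fold.

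**Figure D4:**
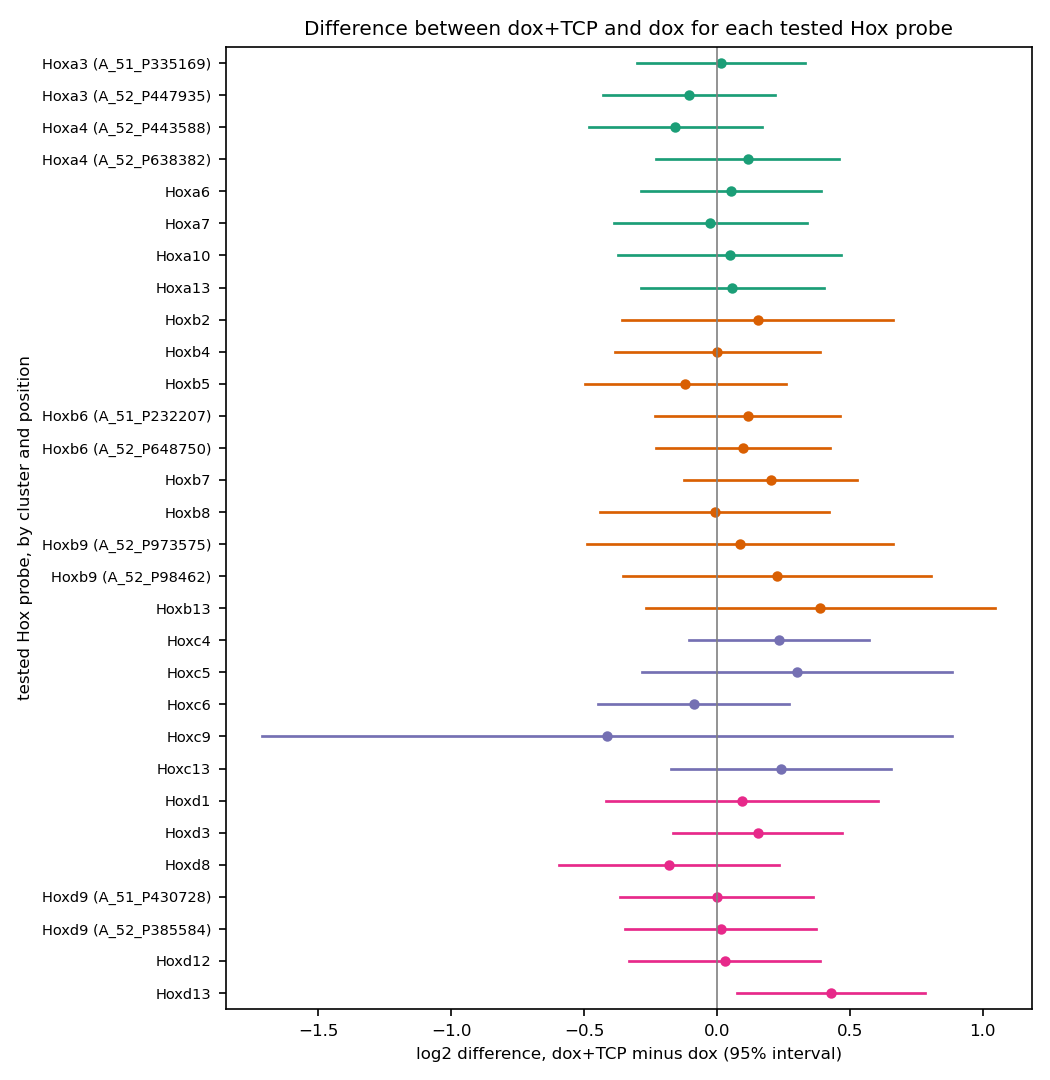
Log2 difference between dox+TCP and dox for 30 tested Hox probes, with bars for the 95% interval from limma and colours for the 4 clusters, in order of cluster and position. All points lie within 0.5 of 0, and the bar of Hoxd13 is the one that does not reach 0.

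The lists that follow are read against the 6.58% higher and 7.44% lower of all tested probes called in dox+TCP, and the 6.07% and 7.33% in dox, and counts this small are given only as a description. Of 9 tested Hox cofactors, which bind DNA beside Hox proteins, 2 fell in dox+TCP and 2 rose and 1 fell in dox. Meis2 had log2 ratios of -2.58 and -2.63 in dox+TCP and -2.37 and -2.78 in dox (limma adjusted p = 0.018 and 0.015). Meis1 fell in dox+TCP, at -0.67 (limma adjusted p = 0.040), and was at -0.54 in dox (0.060). Pbx2 and Pbx3 rose in dox, at 0.69 and 0.48 (limma adjusted p = 0.030 and 0.048), and were at 0.45 and 0.00 in dox+TCP. The median over the cofactors was -0.10 in dox+TCP and -0.07 in dox.

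Among 15 tested genes that act upstream of Hox genes, 1 fell in dox+TCP and 1 rose and 2 fell in dox. Wnt3a, a signal of the primitive streak, had -1.41 and -1.47 in dox+TCP and -1.84 and -1.28 in dox (limma adjusted p = 0.024 and 0.022). Rarg, a retinoic acid receptor, was at -1.34 in dox+TCP (limma adjusted p = 0.051) and fell in dox, at -1.63 (0.038), where its partner Rxra rose, at 0.90 (0.030). Rarb and Cyp26a1, direct targets of retinoic acid, lay at -0.09 and -0.03 in dox+TCP and at -0.04 and -0.04 in dox, and neither was called.

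Of 29 tested chromatin regulators of the clusters, 4 fell in dox+TCP, and 2 rose and 3 fell in dox. That was 4 of 29 in dox+TCP and 5 of 29 in dox, where 14.0% and 13.4% of all tested probes were called. Of the subunits of Polycomb complex 2, Eed and Jarid2 fell in both treatments. The log2 ratio of Eed was -1.29 in dox+TCP and -1.26 in dox (limma adjusted p = 0.026 and 0.027), and that of Jarid2 was -1.24 and -1.52 (0.029 and 0.023). Ezh1, one of its catalytic subunits, was at 0.70 in dox+TCP (limma adjusted p = 0.064) and rose in dox, at 0.87 (0.045). Ezh2, the other, was at -0.65 in dox+TCP and -0.57 in dox, Suz12 was at -0.33 and -0.81, and neither was called. Phc1 of Polycomb complex 1 also fell, at -1.43 in dox+TCP and -1.80 in dox (limma adjusted p = 0.049 and 0.035). Its paralog Phc2 rose in dox, at 0.92 (limma adjusted p = 0.035). The remaining gene that fell in dox+TCP was Men1, at -0.52 (limma adjusted p = 0.047). Men1 was at -0.23 in dox and was not called there. Kdm1a (LSD1) was at 0.04 in dox+TCP and 0.25 in dox and was not called.

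Genes next to the clusters and other homeobox genes were read on the same arrays. Of 9 tested flanking genes 1 rose in each treatment: Hibadh, a valine-degrading enzyme beside the Hoxa cluster, had 1.08 and 0.95 in dox+TCP and 0.92 and 1.11 in dox (limma adjusted p = 0.020 and 0.021). Evx1, a homeobox gene that abuts the tail end of the same cluster, was at -0.34 in dox+TCP and -0.49 in dox and was not called. Of 19 tested homeobox genes outside the clusters, 1 rose and 3 fell in each treatment. Msx2, a homeobox gene expressed in placenta, rose, at a log2 ratio of 1.89 in dox+TCP and 2.21 in dox (limma adjusted p = 0.024 and 0.021). Gbx2 fell, at -3.19 in dox+TCP and -3.28 in dox (limma adjusted p = 0.018 in each). Nkx6-2 fell, at -1.67 in dox+TCP and -2.02 in dox (limma adjusted p = 0.018 and 0.016), and En2 at -0.95 and -1.05 (0.022 and 0.020). In none of these lists was a gene called between dox+TCP and dox.

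Markers of the tissues in which Hox genes are normally used were examined on the same arrays. Of 8 tested mesoderm and primitive streak markers, 1 rose in each treatment, Tbx6, at 1.25 in dox+TCP and 0.96 in dox (limma adjusted p = 0.022 and 0.030). Of 6 neuroectoderm markers, 3 fell in each treatment (Pou3f1, Otx2 and Pax6). None of the 7 primitive endoderm and none of the 11 trophoblast markers was called in either. For trophoblast markers the median log2 ratio was nevertheless 0.97 in dox+TCP and 1.32 in dox, with the reference differing between arrays as given above. Of the 22 feeder fibroblast markers, 1 rose and 2 fell in dox+TCP and 4 fell in dox.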

How the data were processed

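RNA of the treated cells (Cy5) and of the reference (Cy3) was hybridised to 4 Agilent arrays of design 014868. Spot and background intensities were deposited as scanned, extracted with Agilent Feature Extraction 10.1.1.1 per the submitters' processing notes and annotated on mm7, which is NCBI35, per the file headers. In the same files, log10 ratios are background-subtracted and dye-normalized, per the file headers, and the authors' deposited matrix held them within 0.005. Its column medians were 0, 0, 0 and 0.0111. No other upstream step is recorded there.

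The members, lists, rule for named genes and tests were chosen with earlier results of these data known. One gene of the clusters is not reported here and is left out of the Hox counts, medians and plots. Named genes are every other tested Hox probe, and up to 4 tested members of each list by adjusted p. The values of Cdx2, Ezh1, Ezh2, Suz12, Rarb, Cyp26a1, Hoxa2 and Hoxa9 were added after they were seen. Mean signals were corrected with normexp (offset 50) in limma 3.58.1 (R 4.3.3), after local backgrounds over 2 times the channel median were set to it (11 to 112 spots), then loess-normalized, with control spots (1639 of 45018) at weight 0. Outlier spots (119 to 176 per array) were set to missing, and spots averaged to 41174 probes. Channel levels are normalized log2 intensities (loess, then Aquantile). Between 68.8% and 78.1% of non-control spots were well above background per array and channel and 0 were saturated. The number of arrays limits the precision. A mean per group was fitted over all 4 arrays (2 residual and 1.89 prior degrees of freedom), with eBayes and Benjamini-Hochberg adjustment at 0.05. A group against the reference is its mean ratio against 0, which leaves out the reference's own spread. A tested probe that was not well above background in a channel was taken there at its measured level. Its fold is subject to dye bias, with no dye swap. Symbols were updated through RefSeq names of GRCm38.p6 (22951 probes by accession, 6659 by symbol, 3109 by synonym, 8455 kept). The fit was tested on simulated data.

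Alternatives were the background correction, normalization, the scanner's log2 ratio, the filter, 1 probe per gene, the arrays in the fit, leaving out each array, the replicate number and the scan day as blocks.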

Additional observations from a re-analysis of the deposited data

Results flagged for a closer look

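In the reference channel (Cy3), 3 Hox probes had 1 array far from the other 3, each time the array of dox+TCP replicate 2, judged by the gap to the nearest array over the whole range. The Hox set held 48 probes, and how many of them such a rule would pick by chance was not tested. That array was the one scanned on another day. In its Cy3 channel 68.4% of all probes were well above background, against 74.7% to 77.8% on the others. The normalized log2 level of Hoxa2 was 7.62 on replicate 2 of dox+TCP, against 6.20 to 6.34 on the other arrays. That of the Hoxb9 probe A_52_P98462 was 8.26, against 7.76 to 7.83. That of Hoxd12 was 7.76, against 7.43 to 7.47. The Cy5 level on that array was also the highest of the 4 arrays for each of the 3, at 7.41 for Hoxa2, 8.97 for Hoxb9 and 7.91 for Hoxd12.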

How the results depend on the processing

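No Hox probe and no probe at all was called between dox+TCP and dox under any alternative (0), and no called Hox result turned its direction. Over the single probes and comparisons, 1248 of 1375 alternative values kept side and direction, 91 changed sign without a call, 29 gained a call and 7 lost one. The call of Hoxd13 in dox held in 9 of 16 alternatives.

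With local backgrounds as read, 0 probes were called against the reference in either treatment (0 Hox), against 4361 in dox+TCP and 4168 in dox, with median Hox log2 ratios of -0.018 (dox+TCP against dox) and 0.0095 (dox+TCP against the reference). Limma held 2364 and 2252 probes there at an unadjusted p under 0.05, and 0 Hox probes in each. Median centring called 6559 probes in dox+TCP (5043 higher, 1516 lower) and 8259 in dox (6721 higher, 1538 lower), against 2047 higher and 2314 lower, and 1887 higher and 2281 lower. It called 2 and 4 Hox probes, at Hox medians of 0.14 and 0.081, and put the median of all probes at 0.15 and 0.16. The scanner's log ratio called 2 Hox probes in dox+TCP (14.7% of all probes) and 6 in dox (14.8%: Hoxb5, Hoxa4 and Hoxd8 higher, Hoxa7, Hoxa10 and Hoxd13 lower), with Hox medians of 0.24, 0.10 and, between the treatments, 0.15. An offset of 16 called 1 of the 30 Hox probes in dox+TCP and 2 in dox, where 4719 and 4489 of all 31112 probes were called. It gave a median of 0.12 in dox+TCP. No background subtraction called 2 of the 30 Hox probes in dox, where 4240 of all 31112 probes were called, with medians of 0.12 in dox+TCP and 0.093 between the treatments. No filter gave medians of 0.059 in dox+TCP, 0.0076 in dox and 0.015 between the treatments. Fitting the dox arrays alone called 0 probes (0 Hox), and the dox+TCP arrays alone 8536 (3 Hox).

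Leaving out 1 array gave 0 to 8536 probes and 0 to 3 Hox probes in dox+TCP, and 0 to 6123 and 0 to 1 in dox, with 0 where either dox+TCP array was left out. The median Hox log2 ratio ranged from 0.033 to 0.11 between the treatments, 0.078 to 0.11 in dox+TCP and 0.016 to 0.054 in dox. The replicate number as a block called 6960 probes in dox+TCP (3 Hox) and 6724 in dox (2 Hox), with Hoxc9 gained in both and both Hoxb9 probes in dox+TCP. The labels do not say that the number pairs the samples, and deviations of same-numbered samples correlated at 0.454 over 2 pairs. The scan day as a block called 0 probes (0 Hox) in both. Only replicate 2 of dox+TCP was scanned on the other day, so this block amounts to leaving that array out. The slide as a random block could not be fitted. The fit of only the arrays compared is the same fit for dox+TCP against dox. With the scanner's weaker mark of a signal significantly above background, 34 genes passed in dox+TCP, 35 in dox and 30 in the reference. With the mark of well above background on any array of the group, 29 passed in dox+TCP, 25 in dox and 31 in the reference. The 2 arrays a group limit all of these.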
